A study of Mus musculus with 2 samples.

Results

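The genes of oxidative phosphorylation were described in the cortex of mice at postnatal day 5. Members were taken by symbol: every gene whose name begins with mt-Nd, mt-Co, mt-Atp, mt-Cytb, Ndufa, Ndufb, Ndufc, Ndufs, Ndufv, Uqcr, Cox4 to Cox8 or Atp5, without pseudogene and provisional names. This gave 102 members of the 32285 genes measured, 13 encoded by the mitochondrial genome and 89 in the nucleus. The rule reads symbols alone, but the set was proposed with earlier results of these data known.

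Respiration moves electrons through complexes of the inner mitochondrial membrane, which pump protons, and ATP synthase uses the returning protons to make ATP. Complex I takes electrons from NADH, complex III passes them from ubiquinol to cytochrome c, and complex IV hands them to oxygen. Complexes I, III and IV and ATP synthase are assembled from subunits of both genomes: the mitochondrial genome supplies mostly hydrophobic core subunits, and nuclear genes supply the other subunits and the assembly factors. The mitochondrial genome is transcribed as long precursors that are cut into shorter messages, so its genes share their transcription, whereas each nuclear gene has a promoter of its own.

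The study compared 1 library from wild-type mice (WT) with 1 library from mice carrying a mutation of Katnal2 (Mut), a relative of the microtubule-severing enzyme katanin. The tissue was dissociated with trypsin and collagenase, sorted by flow cytometry and measured by droplet RNA sequencing, in which each transcript carries a unique molecular identifier (UMI) and each droplet a barcode. The submitters mention 3 replicates, but the barcodes do not tell animals apart, so each genotype is 1 sample and no test between genotypes was possible. The labels also say that the tissue was kept frozen. Sources used here do not give the strain, the number of pooled animals, the mutated part of Katnal2 or the gate of the sort.

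After filtering, 10052 barcodes of WT (median 6211 UMIs) and 9286 of Mut (median 7322) were used, and 39 barcode sequences occur in both. Katnal2 had 290 UMIs in WT (4.03 CPM) and 378 in Mut (4.94 CPM), which does not check the labels because the mutated part is not known. Barcodes with Xist and no Y-linked UMI were 47.1% of those with 1 of these signs in WT and 65.3% in Mut. CPM, counts scaled to the same total in every class and library, are shares of all UMIs: the 45454 CPM given below for 1 class are 4.55% of its UMIs. Ratios are Mut to WT, and intervals are exact 95% intervals that cover counting error only. They do not cover differences between animals, dissections or preparations.

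Barcodes were put in a class when at least 3 of the 8 markers of a cell type had a UMI and that type led every other by at least 2. Classes with at least 100 barcodes in each library were compared: astrocyte-like (4084 in WT and 4005 in Mut), oligodendrocyte precursor-like (1933 and 1768), inhibitory neuron-like (1646 and 1123), microglia-like (431 and 329), endothelial cell-like (209 and 313) and mural cell-like (257 and 280). Mural cells are the pericytes and smooth muscle cells of vessels. Border-associated macrophage-like barcodes (90 and 218) are given for their levels. Such a class is a range of marker counts, and 1018 of the WT and 979 of the Mut astrocyte-like barcodes lay near the rule. The 10 leading genes of each class held markers of its own type and none of another. The classes were set by these same markers, so this is no check of their names. Excitatory neuron-like barcodes, the main neurons of the cortex, were only 37 and 40, so the neuronal class described is the inhibitory neuron-like one. It is not made of neurons alone. Of its barcodes, 475 in WT and 339 in Mut had a UMI of at least 3 mitosis genes, so it includes dividing precursors. Its leading genes include Dlx1, Dlx2, Sp9 and Sp8.

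Several members share sequence, which bears on what their counts can hold, so those sequences are shown first. A stretch of chromosome 1 (GRCm38) carries annotated nuclear copies of mitochondrial genes, and those of 6 were compared base by base. Other annotated genes, on chromosome 1 next to these and on other chromosomes, share 46.5% of the 60-base words of mt-Co1, 7.15% of those of mt-Nd2 and 4.42% of those of mt-Nd5. Compared over the annotated copy, those of mt-Co2, mt-Atp6, mt-Co3, mt-Nd4l and 876 bases of mt-Nd4 have 0 mismatches. The copy of mt-Nd3, Gm28438 at chr1:24612775-24613119 on the minus strand, has 1, the substitution T3C counted from the first base of mt-Nd3. The first 33 bases of the gene and of its copy are given 5′ to 3′, with the differing base in capitals.
mt-Nd3: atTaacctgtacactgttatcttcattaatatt
Gm28438: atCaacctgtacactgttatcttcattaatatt
None of the 6 copies, and none of the genes that share words with mt-Co1, mt-Nd2 and mt-Nd5, is a row of the count table. Where the copies are identical, a read cannot be assigned to the mitochondrial or the nuclear locus by its sequence, and how the submitters' counting treated such reads is not given in the sources used here.

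Neighbouring mitochondrial genes also overlap. mt-Atp8 and mt-Atp6, the small and the large ATP synthase subunits encoded there, share 43 bases, shown in capitals between 30 bases on either side (chrM:7897-7999, plus strand).
mt-Atp8 and mt-Atp6: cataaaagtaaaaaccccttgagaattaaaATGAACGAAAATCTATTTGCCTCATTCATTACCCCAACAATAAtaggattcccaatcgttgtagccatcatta
mt-Nd4l and mt-Nd4, both subunits of complex I, share 7 bases, shown likewise (chrM:10137-10203, plus strand).
mt-Nd4l and mt-Nd4: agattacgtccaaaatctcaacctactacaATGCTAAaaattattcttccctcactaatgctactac
A UMI in such a stretch can be counted for neither gene or for only 1 of them. mt-Atp8 had 37.1 CPM in WT and 31.5 in Mut astrocyte-like barcodes, against 9352 and 7519 CPM for mt-Atp6, so mt-Atp8 is barely visible here. The part of the overlap in this was not tested.

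Promoters were searched on both strands, in a window from 250 bases before to 50 bases after the start, for motifs of 3 factors known to act on respiration genes. The motif of NRF1 (10 bases, with 1 free base in its middle, seen in capitals in the Atp5k sequence below) was in 17 of the 73 nuclear members with a promoter in the RefSeq table (23.3%) and in 5.19% of 27025 genes. That of ETS-family factors such as GABPA (CCGGAAG) was also in 17 (23.3%), against 9.93%, and that of YY1 (AAGATGGC) in 11 (15.1%), against 3.19%. The last 3 letters of the ETS motif are the first 3 of the YY1 motif, so both can share bases, and a match is a description, not a binding site. Of the 10 nuclear members that were higher in Mut (below), 8 had a promoter in the set counted for this comparison, and 6 of those held a motif. Of the 62 others compared, 54 had a promoter in that set, and 29 of those held a motif. The set may lack some promoters that the shares above include. The share of all genes with any of the 3 motifs was not taken, so these counts have no background. The 250 bases before the start of 2 of the higher members are shown from RefSeq (GRCm38.p6), 5′ to 3′ on the gene's strand, with the motif in capitals. Atp5k (chr5:108434400-108434649, minus strand) holds the NRF1 motif and Atp5e (chr2:174464102-174464351, minus strand) the ETS motif in reverse.
Atp5k: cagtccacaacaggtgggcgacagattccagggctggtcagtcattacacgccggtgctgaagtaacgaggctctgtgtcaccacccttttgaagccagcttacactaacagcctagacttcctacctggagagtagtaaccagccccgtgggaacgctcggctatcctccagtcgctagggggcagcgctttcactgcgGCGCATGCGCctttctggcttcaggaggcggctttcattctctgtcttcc
Atp5e: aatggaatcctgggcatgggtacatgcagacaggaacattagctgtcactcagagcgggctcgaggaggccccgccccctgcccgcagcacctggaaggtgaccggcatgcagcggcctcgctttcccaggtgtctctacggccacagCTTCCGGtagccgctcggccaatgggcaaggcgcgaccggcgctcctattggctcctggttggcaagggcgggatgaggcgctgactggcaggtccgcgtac

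In the WT library the mitochondrial members made up 4.55% of the UMIs of astrocyte-like barcodes and the nuclear members 3.12%. Among the 7 classes with at least 50 barcodes in each library, mitochondrial members were highest in mural cell-like barcodes (51560 CPM). They were lowest in inhibitory neuron-like ones (31489 CPM). Some smaller classes, given at the end, lay outside this range. Nuclear members were also highest in mural cell-like barcodes (38784 CPM) and were lowest in microglia-like ones (17332 CPM). Among these classes, the Mut library had the same highest and lowest one for the mitochondrial members (41782 and 24789 CPM). For the nuclear members its highest class was again mural cell-like (39668 CPM), and border-associated macrophage-like (18360 CPM) stood just under microglia-like (18689 CPM).

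**Figure D1:**
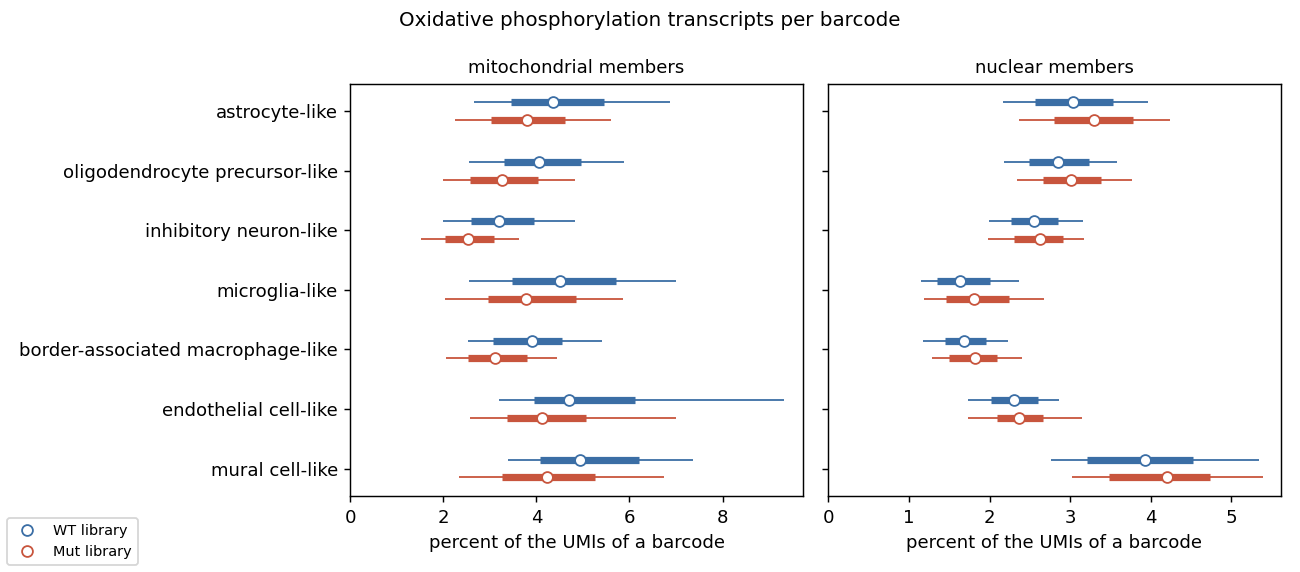
Share of the UMIs of a barcode (percent, horizontal) from mitochondrial members (left) and nuclear members (right) in 7 classes; circles are medians over barcodes, thick lines the middle 50% and thin lines the 10th to 90th percentile, blue for WT and red for Mut. The median mitochondrial share is lower in Mut in every class shown, while the ranges of the barcodes overlap widely.

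The balance of the 2 genomes differed between classes more than between libraries. UMIs of mitochondrial members per UMI of nuclear members were 2.76 in microglia-like, 2.10 in border-associated macrophage-like and 2.07 in endothelial cell-like barcodes of WT. They were 1.45 in astrocyte-like, 1.44 in oligodendrocyte precursor-like, 1.33 in mural cell-like and 1.23 in inhibitory neuron-like barcodes. In Mut the order of the classes was the same, from 2.12 in microglia-like to 0.945 in inhibitory neuron-like barcodes. RNA free in the suspension, taken from barcodes of 10 to 100 UMIs, had 2.27 in WT and 1.91 in Mut.

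The high balance of the macrophage classes came with low nuclear members. Within each library, classes were set against astrocyte-like barcodes, and a gene was counted when it differed at least 1.2-fold the same way in both libraries. In microglia-like barcodes 72 of 75 nuclear members were lower, against 43.4% of all genes, with a median log2 difference of -0.92 in WT and -0.88 in Mut. Medians of this kind are over the members past the filter on low values in that library. For mitochondrial members they were 0.12 in WT (12 members, with mt-Atp8) and 0.04 in Mut (11 members, without it). Of the 11 past the filter in both libraries 4, all of complex I, were higher, against 32.7% of all genes. Border-associated macrophage-like barcodes had 68 of 73 nuclear members lower (49.5% of all genes), with medians of -0.82 and -0.97. In endothelial cell-like barcodes 54 of 75 were lower (37.9% of all genes). Ribosomal protein genes took 17.7% of the UMIs of WT microglia-like and 16.3% of endothelial cell-like barcodes, against 10.0% in astrocyte-like ones, and since CPM are shares of all UMIs, the part of this in the lower members was not tested.

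Inhibitory neuron-like barcodes were lower for both genomes, and 2 nuclear members were higher there (46.6% of all genes). There 10 of 11 mitochondrial members were lower than in astrocyte-like barcodes in both libraries (30.9% of all genes), with medians of -0.50 and -0.63, and 41 of 77 nuclear members, with medians of -0.30 and -0.35. Oligodendrocyte precursor-like barcodes stood close to astrocyte-like ones: 17 of 77 nuclear members were lower (19.3% of all genes) and 2 higher (46.1%). Complex III differed from the rest there, with 6 of its 8 nuclear subunits lower. Mural cell-like barcodes were the class with more nuclear members higher than lower, 26 of 79 against 4, but 32.5% of all genes were higher there too and 31% lower.

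A few subunits have forms that belong to particular cells. Ndufa4l2, a relative of the complex IV subunit Ndufa4 that is known as a hypoxia-induced gene and a pericyte marker, had 1826 CPM in WT and 1820 in Mut mural cell-like barcodes. In the other classes it lay between 0 and 9.24 CPM in WT and between 0.960 and 14.6 in Mut, with the highest of these in endothelial cell-like barcodes, and free RNA held 19.2 and 24.3 CPM. Its level in mural cell-like barcodes was 963 times the median class in WT, but that median lies below the free RNA, so the size of this ratio is uncertain. Ndufa4 had the opposite order: 121 and 115 CPM in mural cell-like barcodes, and 353 to 970 CPM in the other classes of WT and 381 to 1030 in Mut. Per kilobase of transcript, Ndufa4l2 reached 1955 CPM in WT mural cell-like barcodes and Ndufa4 268, while in astrocyte-like barcodes these were 1.46 and 1793. A UMI marks a transcript whatever its length, so values per kilobase here and below can overstate short transcripts and depend on the lengths used.

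Cox4i2, the form of complex IV subunit 4 known from lung and oxygen-sensing cells, followed the same class. It had 656 CPM in WT and 730 in Mut mural cell-like barcodes, 26.5 and 20.8 in astrocyte-like ones, and between 0 and 5.18 CPM in the other 5 classes of both libraries. Cox4i1, the common form, was also highest in mural cell-like barcodes (2451 and 2186 CPM), so both forms were present there, at 902 and 3290 CPM per kilobase in WT. Free RNA had 17.9 and 18.5 CPM of Cox4i2, below the level in astrocyte-like barcodes and above that of the other 5 classes, and the part of free RNA or of doublets in the astrocyte-like level was not tested. Among nuclear members with at least 50 CPM in a class, the next largest ratios of the highest to the median class were those of Uqcrc1, a core protein of complex III, Atp5d and Atp5b, the delta and beta subunits of ATP synthase, and Cox8a. All 4 were highest in mural cell-like barcodes, at 2.11 to 2.41 times the median class in WT.

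**Figure D2:**
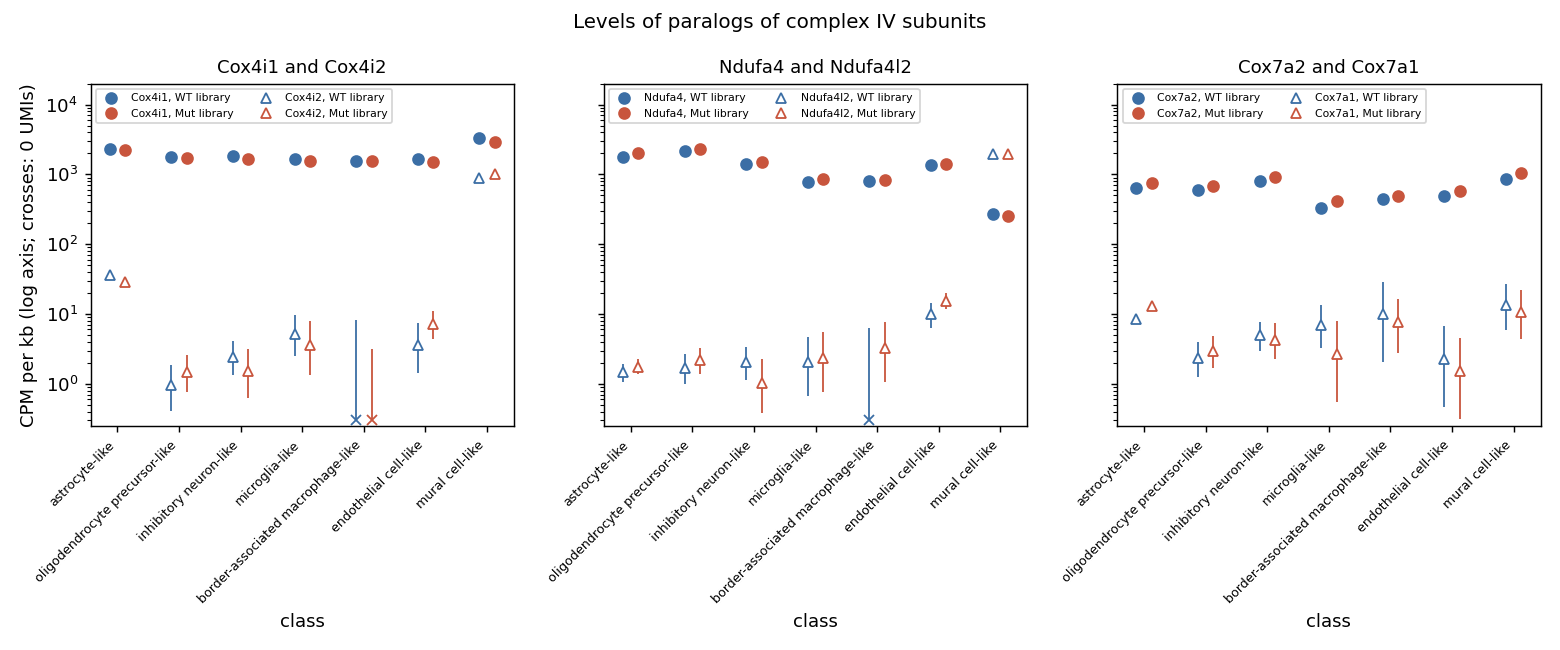
Levels of 3 pairs of complex IV paralogs in CPM per kilobase of transcript (vertical, log axis) by class; blue is WT and red Mut, filled circles the common form and open triangles the other form, lines are 95% counting intervals, and crosses at the bottom mark 0 UMIs. Cox4i2 and Ndufa4l2 are at their highest in mural cell-like barcodes, at 902 and 1955 CPM per kilobase in WT, where Ndufa4 is at its lowest, while Cox7a1 is low in every class.

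The forms of complex IV known from muscle or testis were low in every class. Cox7a1, the heart and muscle form, lay between 0.740 and 6.54 CPM, against 220 to 702 CPM for Cox7a2. Cox6a2, also a muscle form, had 4.17 CPM in WT and 8.72 in Mut microglia-like barcodes, 1.60 and 3.07 in border-associated macrophage-like ones, and at most 0.111 in the other classes, while Cox6a1 lay between 242 and 568. Cox6b2, the testis form, lay between 2.02 and 29.2 CPM and Cox6b1 between 337 and 736. Cox7b2 had up to 1.47 CPM and Cox7b 228 to 450. Cox8b had 4 UMIs in all Mut barcodes and 0 in WT, and Cox8c 0 in both, against 615 to 1848 CPM of Cox8a in the 7 classes. The 3 genes Atp5g1, Atp5g2 and Atp5g3 encode the same mature c subunit of the ATP synthase ring. Per kilobase Atp5g2 was the highest in every class of both libraries, at 1664 CPM in WT astrocyte-like barcodes against 690 of Atp5g1 and 596 of Atp5g3. The gap depends on the transcript lengths used, 441 bases for Atp5g2, 596 for Atp5g1 and 714 for Atp5g3.

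Between the libraries, the summed members of the 2 genomes parted. Summed over the 13 mitochondrial members, astrocyte-like barcodes had 45454 CPM in WT and 38999 in Mut, that is a ratio of 0.858 (0.856 to 0.860). The ratio was 0.805 (0.802 to 0.809) in oligodendrocyte precursor-like, 0.787 (0.782 to 0.792) in inhibitory neuron-like, 0.830 (0.822 to 0.837) in microglia-like, 0.854 (0.848 to 0.860) in endothelial cell-like and 0.810 (0.801 to 0.820) in mural cell-like barcodes. Every class was thus lower in Mut, with a median log2 ratio of -0.29, and border-associated macrophage-like barcodes had 0.834 (0.822 to 0.847). Free RNA had 65609 CPM in WT and 63294 in Mut, that is a ratio of 0.965.

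Summed over the 89 nuclear members, astrocyte-like barcodes had 31244 CPM in WT and 33758 in Mut, that is a ratio of 1.080 (1.078 to 1.083). The other 5 classes compared lay between 1.023 (1.010 to 1.036) in mural cell-like and 1.078 (1.064 to 1.093) in microglia-like barcodes, and the median log2 ratio was 0.06. Border-associated macrophage-like barcodes had 1.005 (0.983 to 1.027), an interval that includes 1. These differences are small, and without a replicate library their size against the spread between animals is not known. Free RNA had 28909 CPM in WT and 33182 in Mut, that is a ratio of 1.148, larger than that of any class. UMIs of mitochondrial members per UMI of nuclear members were 1.45 in WT and 1.16 in Mut astrocyte-like barcodes, which makes a ratio of 0.794, and the 7 classes lay between 0.763 and 0.831.

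**Figure D3:**
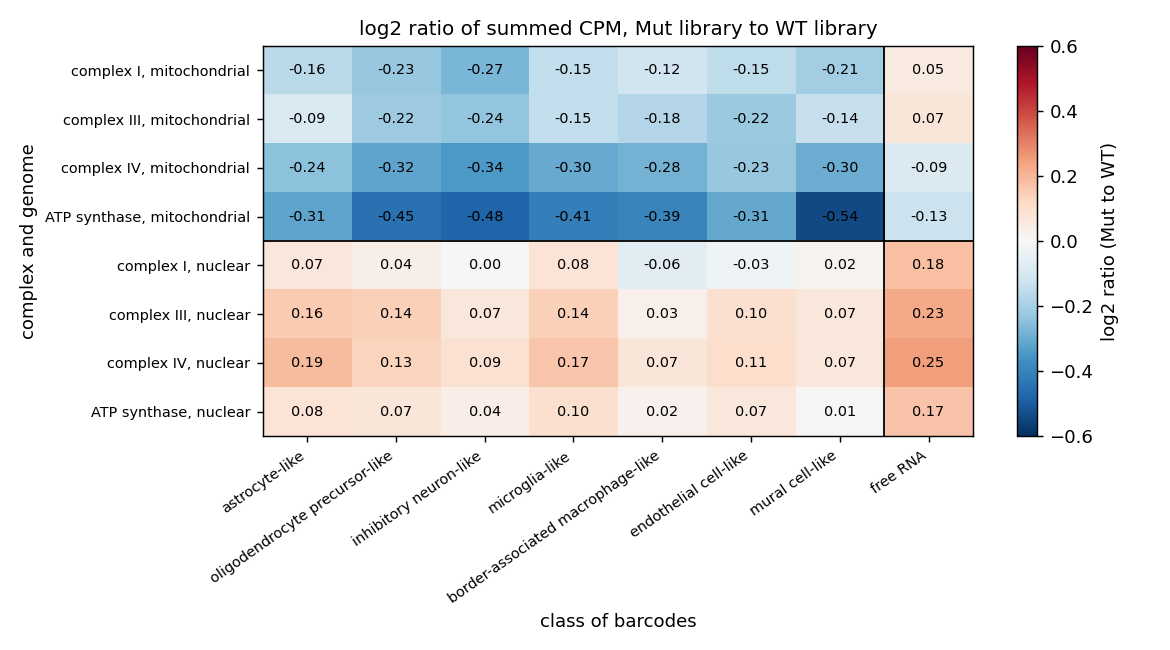
log2 ratio of summed CPM, Mut to WT (colour and printed value), for the members of each complex and genome (rows) in 7 classes and in free RNA (columns). All 28 cells of the mitochondrial rows are negative in the classes, from -0.09 to -0.54, while those of the nuclear rows lie between -0.06 and 0.19.

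By complex, the 2 mitochondrial genes of ATP synthase differed most, with log2 ratios of their sum between -0.31 and -0.54 over the 7 classes. The 3 of complex IV lay between -0.23 and -0.34, the 7 of complex I between -0.12 and -0.27, and mt-Cytb, the only mitochondrial gene of complex III, between -0.09 and -0.24. Nuclear subunits of complex IV lay between 0.07 and 0.19, those of complex III between 0.03 and 0.16, those of ATP synthase between 0.01 and 0.10 and those of complex I between -0.06 and 0.08. The 8 assembly factors of complex I summed to 334 CPM in WT and 336 in Mut astrocyte-like barcodes.

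For single genes, the median log2 ratio over the 6 classes was taken, and a gene was called at a median of at least 1.2-fold. It had to reach 50 CPM as the mean of both libraries and 200 UMIs together in at least 4 classes, and 2394 genes did. Of these 2.59% were called higher in Mut and 1.0% lower, and the median of all was 0.03. Of the 13 mitochondrial members 11 passed this filter, and 5 of them were called lower and 0 higher. Of the 89 nuclear members 72 passed, and 10 were called higher and 0 lower, with a median of 0.07. The 17 that did not pass were the 8 assembly factors, 8 forms of complex IV subunits and Ndufs1, the largest complex I subunit, at 64.5 CPM in WT and 67.0 in Mut astrocyte-like barcodes. Of the 72 nuclear members that passed, 45 had a median above 0, a share near that of all genes, 1486 of 2394.

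mt-Atp6, the proton channel subunit of ATP synthase, had the lowest median at -0.43. It had 9352 CPM in WT and 7519 in Mut astrocyte-like, 8998 and 6592 in oligodendrocyte precursor-like, and 6606 and 4730 in inhibitory neuron-like barcodes. In the vascular and immune classes it stood at 9755 and 7339 in microglia-like, 9520 and 7676 in endothelial cell-like and 11334 and 7777 CPM in mural cell-like barcodes. Mut was the lower library in all 6 classes, with ratios from 0.686 to 0.806, and in free RNA the ratio was 0.914.

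mt-Nd5, the largest of the mitochondrial subunits of complex I, had a median of -0.37. Its levels were 342 CPM in WT and 272 in Mut astrocyte-like barcodes and 257 and 175 in inhibitory neuron-like ones, the class with the lowest ratio, 0.680 (0.632 to 0.733). mt-Co2, which receives electrons from cytochrome c in complex IV, had a median of -0.37, with 7221 and 5825 CPM in astrocyte-like and 5211 and 3938 in inhibitory neuron-like barcodes. mt-Nd2 of complex I had -0.31 and mt-Co3 of complex IV -0.27. For these 5 genes every one of the 6 classes was lower in Mut.

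The other mitochondrial members were below the 1.2-fold limit. mt-Co1, the catalytic subunit of complex IV, had a median of -0.25, just inside it, mt-Nd4 -0.22, mt-Cytb -0.18 and mt-Nd1 -0.13, and each was lower in Mut in all 6 classes. mt-Nd3 lay close to 0: it had 266 CPM in WT and 274 in Mut astrocyte-like barcodes and 240 and 207 in inhibitory neuron-like ones, with a median of 0.00, and was higher in Mut in 3 of the 6 classes. Its median was -0.06 after TMM scaling, -0.046 in barcodes with Xist only and -0.073 in those with a Y-linked UMI only. mt-Nd4l had 115 CPM in WT and 126 in Mut astrocyte-like barcodes and had a median of 0.13. Its highest ratio was 1.235 (1.095 to 1.394) in endothelial cell-like barcodes, and its lowest log2 ratio was -0.02, in inhibitory neuron-like ones. The median of mt-Nd4l was 0.08 after TMM scaling, 0.037 in barcodes with Xist only and 0.047 in those with a Y-linked UMI only. mt-Nd6, the only member on the other strand of the mitochondrial genome, and mt-Atp8 were too low for a median, at 37.2 and 37.1 CPM in WT and 32.0 and 31.5 in Mut astrocyte-like barcodes. Over 90% of the 60-base words of 5 mitochondrial members, mt-Nd3 and mt-Nd4l among them, occur in the nuclear copies. The median log2 ratio of their sum was -0.35, a sum in which mt-Nd3 and mt-Nd4l weigh little. Their single medians ranged from -0.43 to 0.13. The sum of mt-Co1 and mt-Nd4, with 46.5% and 61.9%, had -0.23, and that of the 4 compared with under 10% had -0.19. All 3 sums were lower in Mut, and the part of the copies in the counts was not tested.

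**Figure D4:**
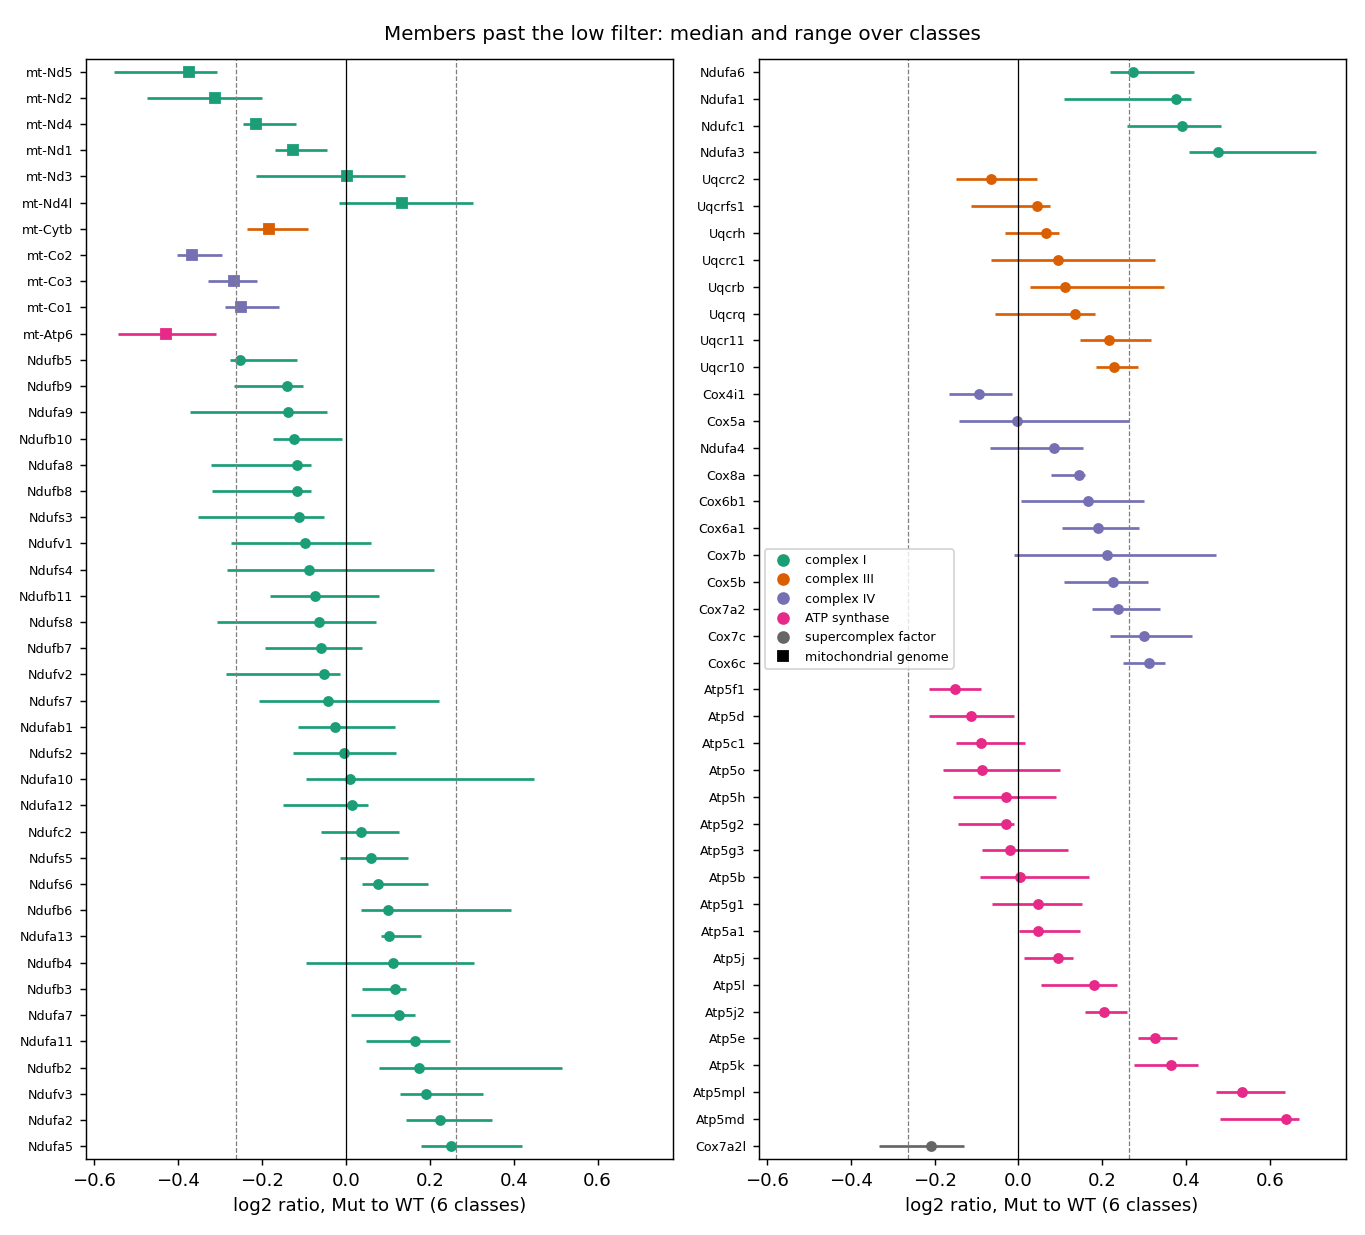
log2 ratio, Mut to WT, of the 83 members past the filter on low values (vertical, ordered by genome and complex); symbols are medians over the classes that passed the filter (at most 6), lines their lowest to highest class, squares mitochondrial and circles nuclear members, and dashed lines 1.2-fold. The mitochondrial members other than mt-Nd3, whose median of 0.00 falls below 0 after TMM scaling, and mt-Nd4l lie below 0, and Atp5md and Atp5mpl lie farthest above it.

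The nuclear members called higher were mostly small accessory subunits. In ATP synthase they were Atp5md (median 0.64) and Atp5mpl (0.53), small membrane proteins that attach to the complex, Atp5k (0.36), the e subunit that helps the enzyme form dimers, and Atp5e (0.33), the epsilon subunit of its central stalk. In complex I they were Ndufa3 (0.47), Ndufc1 (0.39), Ndufa1 (0.38) and Ndufa6 (0.27), accessory subunits. In complex IV they were Cox6c (0.31) and Cox7c (0.30). No nuclear subunit of complex III was called, and the highest, Uqcr10 and Uqcr11, had 0.23 and 0.22.

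Atp5mpl had 247 CPM in WT and 384 in Mut astrocyte-like barcodes, with a ratio of 1.555 (1.515 to 1.596), 196 and 286 in oligodendrocyte precursor-like and 184 and 255 in inhibitory neuron-like ones. It stood at 145 and 206 in microglia-like, 156 and 231 in endothelial cell-like and 254 and 367 CPM in mural cell-like barcodes. Mut was higher in all 6 classes, and the free RNA held 266 and 417 CPM, a ratio of 1.569 that was as large as in the classes. Atp5md had 109 CPM in WT and 173 in Mut microglia-like barcodes, with a ratio of 1.595 (1.367 to 1.864), and at 216 and 343 in mural cell-like ones. Its ratio in free RNA was 1.224, below that of the 6 classes, which began at 1.397.

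Ndufa3 had 150 CPM in WT and 211 in Mut astrocyte-like barcodes and had its highest ratio in endothelial cell-like ones, 1.642 (1.423 to 1.898), with 99.8 and 164 CPM. Ndufa1, on the X chromosome, stood at 155 and 205 CPM in astrocyte-like and at 124 and 134 in endothelial cell-like barcodes, where the interval of its ratio, 0.940 to 1.240, includes 1. Its median was 0.41 both in barcodes with Xist only (5 classes) and in those with a Y-linked UMI only (3 classes). Cox7c had 749 CPM in WT and 964 in Mut astrocyte-like barcodes and Cox6c at 756 and 963. For all 10 genes the ratio was above 1 in each of the 6 classes. Border-associated macrophage-like barcodes had ratios above 1 for 9 of them, and Ndufa1 had 0.913 there (0.682 to 1.233).

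The lowest nuclear medians were smaller in size. Ndufb5, a complex I subunit, had -0.25, with 419 CPM in WT and 387 in Mut astrocyte-like and 338 and 283 in inhibitory neuron-like barcodes. Cox7a2l, which helps join complexes III and IV into supercomplexes, had -0.21, with 395 and 351 CPM in astrocyte-like and 446 and 354 in microglia-like barcodes. Atp5f1, the b subunit of the stator of ATP synthase, had -0.15, Ndufb9 and Ndufa9 of complex I -0.14, and Ndufb10 -0.13. For all 6, Mut was the lower library in every one of the 6 classes. Exons of Ndufb5 overlap those of Mrpl47 on the opposite strand by 616 bases, of Atp5f1 those of Wdr77 by 337, and of Cox6c those of Vps13b by 250. Whether the counting used the strand is not given in the sources used here, so reads of these pairs may not be told apart.

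Counts in single classes stand beside the background of that class. In astrocyte-like barcodes 16 of 77 nuclear members were at least 1.2-fold higher, against 3.66% of all genes, and 0 lower. In microglia-like barcodes 19 of 72 were higher, but so were 19.1% of all genes, and 3 were lower (4.99% of all genes). In inhibitory neuron-like barcodes the higher count was 10 of 75 (7.89% of all genes), in oligodendrocyte precursor-like 10 of 77 (3.53%), in endothelial cell-like 9 of 72 (8.07%) and in mural cell-like 10 of 74 (14.5%). Lower counts were 2 of 75 in inhibitory neuron-like, 4 of 72 in endothelial cell-like (4.44% of all genes) and 3 of 74 in mural cell-like barcodes (6.42%). Of the mitochondrial members 3 of 11 were lower in astrocyte-like barcodes (0.685% of all genes) and 6 of 11 in both oligodendrocyte precursor-like (1.08%) and inhibitory neuron-like ones (1.84%). Lower were also 4 of 12 in microglia-like (4.99%), 3 of 11 in endothelial cell-like (4.44%) and 5 of 11 in mural cell-like barcodes (6.42%). In endothelial cell-like barcodes 1 of 11, mt-Nd4l, was higher, against 8.07% of all genes.

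The nuclear members were ordered by the length of their coding sequence, a comparison chosen after the values had been seen. The 10 called higher have coding sequences of 156 to 393 bases, with a median of 212, and the 62 others of 168 to 1659 bases, with a median of 435. Across the 72 members Spearman's rho between coding length and median log2 ratio was -0.76, a description over genes that share the same 2 libraries. All 19 members under 300 bases had a median above 0, and 8 of them were called higher. Of the 25 from 300 to 450 bases 2 were called, all 11 from 450 to 600 bases lay at or below 0, with a median of -0.11, and the 7 of 1200 bases or more had a median of 0.00.

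Other nuclear genes did not show this order over their whole range. Their rho was 0.30 over 2288 genes, of which 916 had 1200 bases or more, against 7 of the 72 members. The 2 values of rho thus cover unlike ranges of length. Under 300, from 300 to 450 and from 450 to 600 bases, medians of other genes were 0.04, -0.02 and -0.03. Those of the members were 0.23, 0.10 and -0.11, so both fell over these ranges, other genes by less. Other genes were called higher there in 17 of 96 (17.7%), 9 of 254 and 4 of 266. Under 300 bases this was 10.3% without ribosomal protein genes. The order of the members was present in each of the 6 classes, with rho from -0.53 in microglia-like to -0.76 in astrocyte-like barcodes, and in free RNA, with -0.70 over 76 members. With the length of the whole transcript rho was -0.59. The part of library preparation in this order was not tested.

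**Figure D5:**
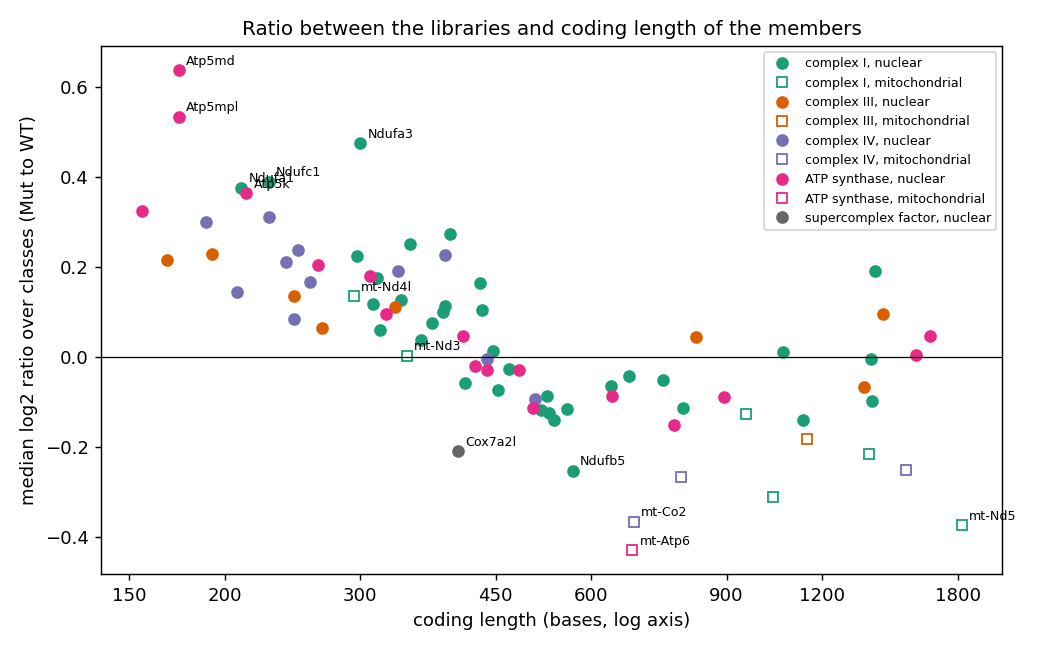
Median log2 ratio, Mut to WT, over the classes (vertical) against coding length in bases (horizontal, log axis) for the 83 members past the filter; filled circles are nuclear and open squares mitochondrial members, coloured by complex. Nuclear members under 300 bases lie above 0, those from 450 to 600 bases at or below it, and the mitochondrial members, apart from the short mt-Nd3 and mt-Nd4l, lie below 0, from -0.13 to -0.43.

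Depth, the share of barcodes of each sex, Malat1, genes of the dissociation response and haemoglobin moved with the libraries, and the members were read within them where the files allow it. The median UMI count was higher in Mut in all 6 classes, for example 8529 in WT and 9662 in Mut astrocyte-like barcodes. The share of Malat1, a nuclear RNA, was 2.11% in WT and 2.44% in Mut astrocyte-like barcodes and was higher in Mut in each class but the endothelial cell-like one. The 9 genes of the dissociation response took more of the UMIs in Mut in all 6 classes, for example 0.122% in WT and 0.170% in Mut inhibitory neuron-like barcodes and 0.358% and 0.411% over all barcodes used. Haemoglobin was also higher in Mut in all 6 classes, at 0.0090% and 0.0379% in astrocyte-like and 0.0122% and 0.0692% in inhibitory neuron-like barcodes, while free RNA held 0.854% and 0.782%. The part of these in the members' differences was not tested. Astrocyte-like barcodes of 1000 to 3000 UMIs had a mitochondrial ratio of 0.761, those of 3000 to 6000 of 0.818, those of 6000 to 12000 of 0.851 and those of 12000 or more of 0.888. The mitochondrial ratio of astrocyte-like barcodes was thus below 1 in each depth range, and nearest to 1 in the deepest. The deepest range was also nearest to 1 in inhibitory neuron-like (0.847) and endothelial cell-like barcodes (0.873). In oligodendrocyte precursor-like (0.831), microglia-like (0.993) and mural cell-like barcodes (0.867) the shallowest range was nearest to 1. The mitochondrial ratio was below 1 in all 46 subsets of the 6 classes by depth, sex and mitosis genes. The value nearest to 1 was 0.993 (0.944 to 1.045), in the 40 and 29 microglia-like barcodes of 1000 to 3000 UMIs.

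In barcodes with Xist only, the mitochondrial ratio was 0.830 in astrocyte-like and 0.831 in inhibitory neuron-like barcodes, and in those with a Y-linked UMI only it was 0.877 and 0.761. The nuclear ratio was 1.072 and 1.090 in astrocyte-like barcodes of the 2 kinds. Dividing astrocyte-like barcodes, with a UMI of at least 3 mitosis genes, had a mitochondrial ratio of 0.886 and the others 0.850. The nuclear ratio fell under 1 in 3 of its 46 subsets, the shallowest inhibitory neuron-like (0.973), the mural cell-like of 6000 to 12000 UMIs (0.962) and the dividing mural cell-like barcodes (0.994). The part of dissociation, storage or library preparation in the mitochondrial difference was not tested and cannot be told apart from genotype with 1 library each.

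Genes around the pathway were counted by the same rule, by which 2.59% of all genes tested were called higher and 1.0% lower. The lists are too short for their counts to be set firmly against these shares. Of complex II, cytochrome c1 and cytochrome c, 6 of 6 genes were tested and 0 called, from Sdhb at -0.01 to Cycs, the mobile electron carrier, at 0.12. Of 27 assembly factors of complexes III to V, 7 passed the filter and 2 were higher: Cox17, a copper chaperone of complex IV, at 0.46, with 64.8 CPM in WT and 89.2 in Mut astrocyte-like barcodes, and Cox20 at 0.28. Of 22 genes of mitochondrial DNA upkeep and transcript processing 3 passed and 1 was higher, Slirp, which stabilises mitochondrial messages, at 0.36. Of 9 nuclear regulators of respiration genes Yy1 alone passed, at 0.11, so their level is largely not measured here.

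Of 18 genes of mitochondrial import 15 passed, 1 higher and 1 lower, with a median of -0.06, again beside 2.59% and 1.0% of all genes. Tomm7, a small subunit of the outer membrane pore, had 0.39, and Tomm22, its receptor, had -1.11, with 132 CPM in WT and 60.4 in Mut astrocyte-like barcodes. The citric acid cycle had 0 of 10 tested genes called, from Idh3g at -0.11 to Cs, citrate synthase, at 0.17. Glycolysis also had 0 of 9, from Ldhb at -0.10 to Ldha at 0.19. Mitosis genes had 0 of 8 called, with a median of 0.15, and genes known to respond to tissue dissociation 0 of 6, from Fosb at -0.25 to Fos at 0.23. With 2.59% and 1.0% of all genes called, a count of 0 in lists this short says little. All of these medians stand beside 0.03 for all genes tested.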

How the data were processed

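The authors deposited raw UMI counts per gene and barcode, from 2 libraries of mouse cortex at postnatal day 5, per the labels. Cell Ranger 4 wrote them, per the file headers, and Cell Ranger and STAR with GRCm38 are named in the submitters' processing notes; sources used here give neither annotation release nor kit chemistry. Over all barcodes there were 93664707 UMIs in WT and 97891513 in Mut.

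Kept barcodes had 1000 UMIs or more from 500 genes or more, of which 20% or less were mitochondrial (11024 in WT, 10102 in Mut). For doublets, barcodes were scored with Scrublet (scanpy 1.11.5), and the highest scores were removed at 0.8% per 1000 barcodes, 972 (8.8%) and 816 (8.1%). Classes were set per barcode from 8 markers for each of 14 cell types. UMIs were summed per class and library and given as CPM, and log2 ratios were taken after adding 1 CPM for single genes. Sums carry exact Poisson and ratios exact conditional binomial 95% intervals (scipy 1.17.1). The calls were tested on simulated counts. With 1 library a genotype there is no p-value.

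Positions and lengths came from GENCODE annotation of GRCm38, with all 102 members found. Length is that of the transcript with the longest coding sequence. Protein sequences were not used here.

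Genes named are all mitochondrial members, the 6 highest and 6 lowest nuclear medians, the 6 nuclear members with the largest ratio of highest to median class in WT, fixed paralog sets, and at most 2 highest and 2 lowest of each list; the other members called or given by complex were named after their values were seen. The members, lists and markers were chosen with earlier results of these data known. One gene of the glycolysis list, whose symbol names 2 rows, was left out. The alternatives tried were 13 settings.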

Additional observations from a re-analysis of the deposited data

How the results depend on the processing

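No paired analysis was possible because each genotype has 1 library and the labels give no shared replicate. Under the 13 alternatives the median log2 ratio of the summed mitochondrial members stayed negative and that of the nuclear members positive. The mitochondrial median of -0.29 became -0.26 with no doublets removed, -0.35 with TMM scaling, -0.27 in barcodes with Xist only (5 classes) and -0.35 in barcodes with a Y-linked UMI only (3 classes). The nuclear median of 0.06 became 0.028 with TMM scaling, 0.083 after thinning each barcode to 1000 UMIs and 0.089 with Xist only. With no doublets removed, 3 mitochondrial members were called lower in place of 5, over 7 classes, and mt-Nd2 (-0.25) and mt-Co3 (-0.26) missed the limit. So did mt-Co3 with a lead of 1 marker (-0.25), and mt-Nd2 (-0.24) and Atp5e (0.22) with Xist only. After thinning, 4 nuclear members were called higher in place of 10. Only 3 of the 10 then passed the filter on low values, and 2 of those stayed called. TMM scaling kept 7 of the 10, without Cox7c (0.26), Cox6c (0.25) and Ndufa6 (0.23), and all 10 stayed above 0 in each alternative where they passed the filter. The count of nuclear members called lower was 0, and became 1 with TMM scaling and 1 in barcodes with a Y-linked UMI only. The cause of these shifts was not tested, except that fewer genes pass after thinning and fewer classes within a sex. The other 54 values of these 5 results lay within the counting interval of the main value or, for counts, were equal to it or within 1.5 times of it. Among single genes 271 values stayed within their counting interval and 20 moved, and none that had been called changed its sign. With 1 library a genotype, leaving out a library leaves no comparison.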

Other observations

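Classes with fewer than 50 barcodes in a library were left out of the comparisons. Fibroblast-like barcodes (48 in WT and 134 in Mut) had 54641 CPM of mitochondrial members in WT and 43647 in Mut, and 29329 and 28741 CPM of nuclear members. Ndufa4l2 stood there at 77.7 CPM (53.1 to 110) in WT and 40.9 (30.3 to 54.1) in Mut, above its level in each class of the report other than the mural cell-like one. Cajal-Retzius cell-like barcodes (40 and 34), early neurons of the outer cortical layer, had more nuclear than mitochondrial members in both libraries, 35402 against 34603 CPM in WT and 35276 against 26883 in Mut. Excitatory neuron-like barcodes (37 and 40) had 44282 and 31741 CPM of mitochondrial members and 28940 and 26102 of nuclear members. Ependymal cell-like barcodes (15 and 19) had 51634 and 44510 CPM of mitochondrial members, and 26925 and 29768 of nuclear members. Monocyte-like barcodes (16 and 24) had 27026 and 21737 CPM of mitochondrial members, and 17512 and 20217 of nuclear members.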
